A study of Mus musculus with 2 samples.

Results

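The BCL2 family comprises the proteins that decide whether the outer membrane of the mitochondrion is opened during programmed cell death. The genes described here are 10 of its members, taken as every probe set whose annotation names exactly 1 gene symbol and whose symbol is Mcl1, Bcl2, Bcl2l1, Bax, Bak1, Bad, Bid, Bcl2l11, Bmf or Bbc3. They were selected because Mcl1 gave a bright signal that differed between the arrays, so the Mcl1 difference is a description of what led to its selection and not a finding. Of the 10 genes, 9 had such probe sets, 31 in all, among the 18193 genes named by a single symbol. Bax is not analysed here.

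Messenger RNA of the mouse ventral prostate, a secretory lobe that depends on androgen, was profiled in mice labelled as having or lacking U19/Eaf2. Androgen induces the tumour suppressor U19/Eaf2, whose product partners the ELL elongation factors of RNA polymerase II. One sample came from male C57BL/6J mice labelled U19/Eaf2 -/- and the other from male C57BL/6J mice labelled U19/Eaf2 +/+, both 3 months old. Each genotype had 1 array of 45101 probe sets. The labels say neither whether animals were pooled nor which exons of the gene were deleted. With 1 array per genotype no test was possible, and every comparison below describes these 2 arrays.

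In this family, pro-survival proteins such as MCL1, BCL2 and BCL-XL (the product of Bcl2l1) hold the pore-forming proteins BAX and BAK in check. BH3-only proteins, among them BAD, BID, BIM (Bcl2l11), BMF and PUMA (Bbc3), sense damage or loss of growth signals and bind the pro-survival proteins or activate the pore formers. MCL1 is a very short-lived protein, and its abundance follows its synthesis closely. The luminal cells of the prostate depend on androgen, and they die by apoptosis after castration.

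The Eaf2 probe set itself read 702 on the array labelled knockout and 691 on the wild-type array, a log2 ratio of 0.02. A probe set outside the deleted part says nothing about the genotype, and whether this one lies outside it is not stated. The label could not be checked from this signal, so the sample is called the array labelled knockout throughout. Markers of the secretory epithelium were present on both arrays. Spink1, a secreted protease inhibitor, read 64718 on the array labelled knockout and 62610 on the wild-type array. Msmb, another secretory product, read 32270 on the array labelled knockout and 41774 on the wild-type array, and the keratin Krt18 read 14438 and 14662 on the same 2 arrays. Of 8 epithelial markers listed, 5 had a probe set, 3 of them lower on the array labelled knockout, with summed signals of 124881 there and 132514 on the wild-type array. Of 5 smooth muscle markers, 5 were lower on the array labelled knockout, with summed signals of 33411 there and 43560 on the wild-type array. Seminal vesicle markers were all below the floor, a signal of 166 that is the 50th percentile of all non-control signals and that separated entering from dim probe sets. Fewer cells of a type and less RNA per cell cannot be told apart in whole tissue.

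The Mcl1 locus lies on chromosome 3 at 95656944 to 95663179 in GRCm38.p6. Its promoter window is shown because Mcl1 is the gene that the description turns on. RefSeq's window runs from 250 bases before to 50 bases after the transcript start, at chr3:95658471-95658770 on the plus strand, and has a GC content of 65.7%. Capitals mark matches to the motifs searched on both strands.
Mcl1 promoter: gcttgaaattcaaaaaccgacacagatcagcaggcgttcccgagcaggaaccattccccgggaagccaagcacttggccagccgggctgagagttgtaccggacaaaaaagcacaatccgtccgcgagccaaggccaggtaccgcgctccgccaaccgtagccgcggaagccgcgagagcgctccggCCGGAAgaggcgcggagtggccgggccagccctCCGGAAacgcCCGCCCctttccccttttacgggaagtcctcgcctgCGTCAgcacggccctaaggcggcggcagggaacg
The ETS core CCGGAA matched 2 times, beginning 63 and 30 bases before the start, and 14.9% of 32851 promoters in the table hold that motif. The GC box GGGCGG matched 1 time on the minus strand, and 35.7% of promoters hold it. The half-site TGACG of the cAMP response element matched 1 time on the minus strand, just inside the transcript, and 20.8% of promoters hold it. No capitals overlap. The letters CCAAT (37.4% of promoters), TATAAA (13.6%), AGAACA (19% of promoters, a half-site of the androgen receptor) and TTCNNNGAA (8.3%, a STAT site) are not in this window. The 10 genes had 18 promoter windows between them, and AGAACA was in 0 of these.

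Mcl1, the short-lived pro-survival member, read higher on the array labelled knockout in 6 of 6 probe sets. Probe set 1448503_at read 24560 on the array labelled knockout and 9655 on the wild-type array, 2.54-fold higher with a log2 ratio of 1.35. Probe set 1416881_at read 4939 on the array labelled knockout and 2406 on the wild-type array, 2.05-fold higher with a log2 ratio of 1.04. These were the only Mcl1 probe sets past 2-fold. Among 4497 genes with at least 2 measured probe sets, 0.133% had 2 or more that were at least 2-fold higher, Mcl1 included. Since Mcl1 was chosen for its difference, nothing about Mcl1 is read from this share. The other 4 lay closer to equality.

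Probe set 1437527_x_at read 8291 on the array labelled knockout and 6016 on the wild-type array, 1.38-fold higher. Probe set 1456243_x_at read 6732 on the array labelled knockout and 5039 on the wild-type array, 1.34-fold higher. Probe set 1456381_x_at read 4762 on the array labelled knockout and 3845 on the wild-type array, 1.24-fold higher. These 3 carry the suffix of probe sets that may hybridise to more than 1 transcript, and their log2 ratios spanned only 0.31 to 0.46. Probe set 1416880_at, with no such suffix, read 4355 on the array labelled knockout and 4288 on the wild-type array, a log2 ratio of 0.02. It lay on the other side of 0 under quantile normalization, at -0.06, and under loess, at -0.04.

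The Mcl1 probe sets shared a direction as deposited but not under quantile normalization or loess. They disagreed on the size of the difference. Their median log2 ratio was 0.44, or 1.36-fold, and their SD was 0.494 (n = 6 probe sets of the same 2 arrays). Among the 98 genes with at least 6 probe sets measured on both arrays the median SD was 0.323, and 87.8% had a smaller SD than Mcl1. This spread is between probe sets of the same 2 samples and says nothing about animals. Where along the transcript each probe set lies is not stated in the files. As deposited, all measured probe sets were higher on the array labelled knockout in 8 of those 98 genes, or 8.16%, Mcl1 included. Mcl1 was chosen for its difference, so nothing about it is read from this share or from the rank of its SD.

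The Mcl1 signals came with other differences between the arrays. The ratio of the 3' to the 5' control probe sets, a guide to RNA degradation, was 1.65 on the array labelled knockout and 1.25 on the wild-type array for Actb, and 0.847 and 0.714 for Gapdh on the same 2 arrays. Leukocyte markers, since Mcl1 is also abundant in blood cells, summed to 1670 on the array labelled knockout and 1601 on the wild-type array. Of the 7 leukocyte markers present, 4 entered, 3 of them higher on the array labelled knockout, and Cd3e, Itgam and S100a8 were below the floor on both arrays. Adipocyte markers summed to 1268 on the array labelled knockout and 586 on the wild-type array, with 2 of 3 entering, both higher, and Lep below the floor. Urothelial markers summed to 4804 on the array labelled knockout and 6703 on the wild-type array, with 3 of 4 lower. Each marker was counted by its brightest probe set. For Upk1b this had a log2 ratio of -0.58, against a median of -2.05 over its 4 measured probe sets. The part of these differences between the arrays in the Mcl1 signals was not tested.

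**Figure D1:**
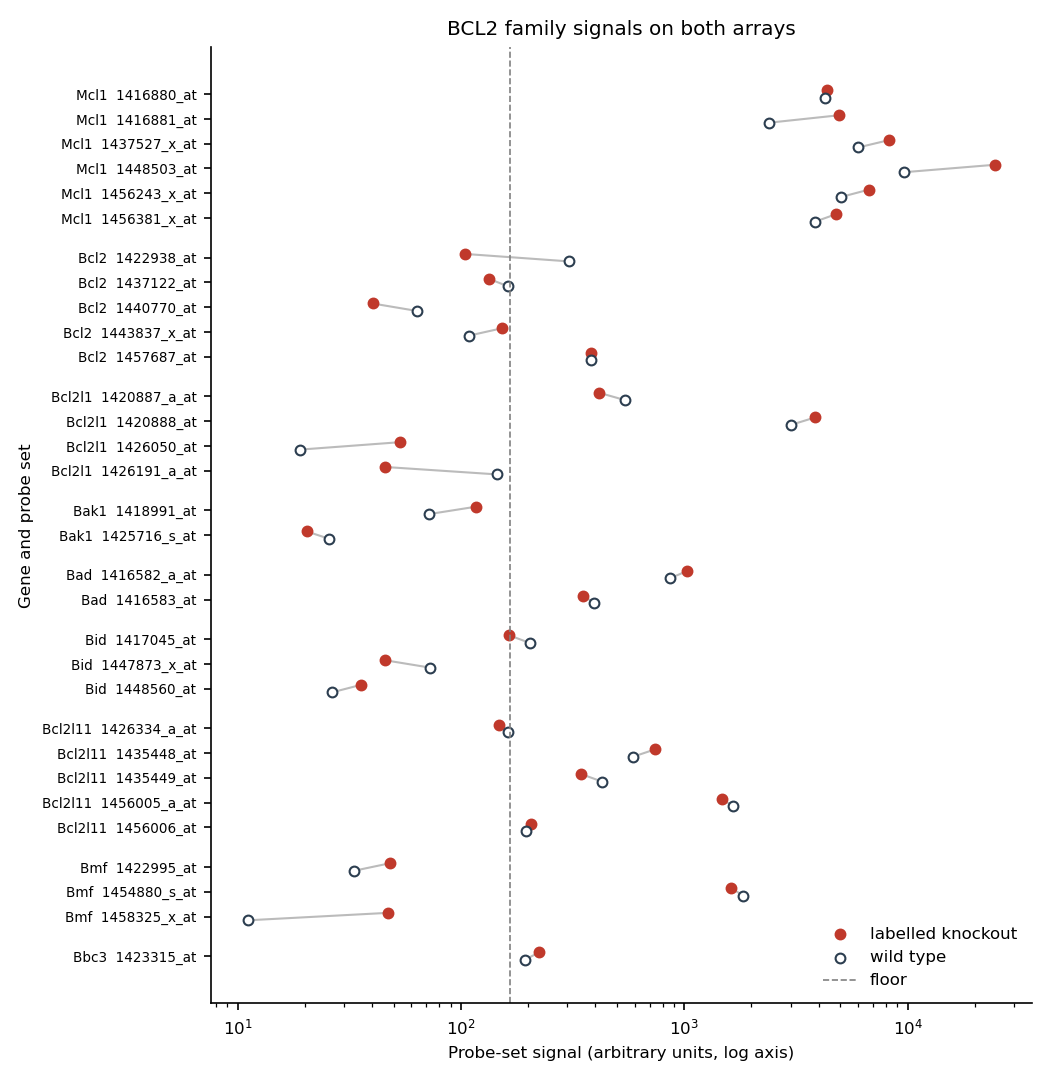
Signal of each probe set of 9 BCL2 family genes on the array labelled knockout (filled) and the wild-type array (open), in arbitrary units on a log axis, with the floor of 166 dashed. All 6 Mcl1 probe sets lie far above the floor, and both Bak1 probe sets lie below it.

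Bcl2, the founding pro-survival gene of the family, had 5 probe sets, of which 1 was measured on both arrays. Probe set 1457687_at read 383 on the array labelled knockout and 384 on the wild-type array, a log2 ratio of -0.01. Probe set 1422938_at read 105 on the array labelled knockout, under the floor, and 304 on the wild-type array, at least 1.83-fold lower. The 2 disagree, and the bound rests on a signal close to background. The remaining 3 were below the floor on both arrays, at 133, 40.3 and 153 on the array labelled knockout and 162, 63.5 and 108 on the wild-type array for 1437122_at, 1440770_at and 1443837_x_at in that order.

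Bcl2l1 encodes BCL-XL and, by splicing, a shorter pro-death form. Probe set 1420888_at read 3858 on the array labelled knockout and 3004 on the wild-type array, 1.28-fold higher. Probe set 1420887_a_at read 414 on the array labelled knockout and 543 on the wild-type array, 1.31-fold lower. The brighter probe set was therefore higher and the dimmer one lower, with log2 ratios of 0.36 and -0.39. The other 2 were below the floor on both arrays, at 53.1 for 1426050_at and 45.8 for 1426191_a_at on the array labelled knockout, and at 18.96 and 145 on the wild-type array.

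Bak1, which encodes the pore former that sits in the outer mitochondrial membrane, stayed below the floor on both arrays. Probe set 1418991_at read 117 on the array labelled knockout and 72.3 on the wild-type array, and 1425716_s_at read 20.4 and 25.7 on the same 2 arrays. No ratio is given for them.

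Among BH3-only genes, which start the pathway, the arrays differed by less than 1.5-fold in 9 of 9 entering probe sets, with the Bid bound counted at its limit. Counted likewise, 12.6% of all entering probe sets differed by at least 1.5-fold. Of the 9, 4 were higher and 5 lower on the array labelled knockout. Bcl2l11 (BIM), the broadest-binding of these proteins, had 4 measured probe sets that split evenly. Probe set 1435448_at read 740 on the array labelled knockout and 589 on the wild-type array, a log2 ratio of 0.33. Probe set 1456006_at read 207 on the array labelled knockout and 195 on the wild-type array, a log2 ratio of 0.08. In the other direction, 1456005_a_at read 1480 on the array labelled knockout and 1656 on the wild-type array, a log2 ratio of -0.16, and 1435449_at read 346 and 428 on the same 2 arrays, a log2 ratio of -0.31. The Bcl2l11 median was -0.04. The remaining one, 1426334_a_at, was below the floor at 148 on the array labelled knockout and 162 on the wild-type array.

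Bad, whose product is kept inactive by phosphorylation downstream of growth factor signals, also split. Probe set 1416582_a_at read 1030 on the array labelled knockout and 860 on the wild-type array, 1.20-fold higher, whereas 1416583_at read 354 on the array labelled knockout and 396 on the wild-type array, 1.12-fold lower. Bmf, whose product is tethered to the cytoskeleton, read 1617 on the array labelled knockout and 1840 on the wild-type array in 1454880_s_at, 1.14-fold lower. Its other 2 probe sets were below the floor, with 47.9 for 1422995_at and 47.2 for 1458325_x_at on the array labelled knockout and 33.3 and 11.2 on the wild-type array.

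Bbc3, the gene of PUMA and a target of p53, read 223 on the array labelled knockout and 193 on the wild-type array in its only probe set, 1423315_at, 1.16-fold higher. Bid, which links death receptors to the mitochondrion, read 165 on the array labelled knockout, just under the floor, and 203 on the wild-type array in 1417045_at, at least 1.22-fold lower. Its remaining probe sets were dim, with 45.6 for 1447873_x_at and 35.5 for 1448560_at on the array labelled knockout and 72.8 and 26.4 on the wild-type array.

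**Figure D2:**
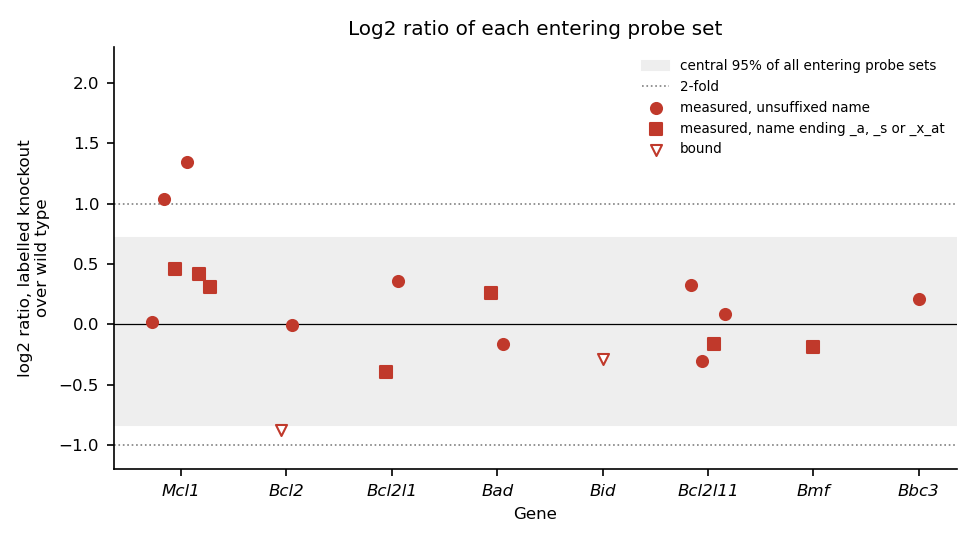
Log2 ratio of signal on the array labelled knockout over the wild-type array for each of the 19 entering member probe sets, grouped by gene, with circles for unsuffixed names, squares for suffixed names and open triangles for bounds. The shaded band spans -0.83 to 0.72, the central 95% of all entering probe sets, and 2 Mcl1 probe sets lie above it and 1 Bcl2 bound lies below it.

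Of the 31 member probe sets, 19 entered, 17 of them measured on both arrays. At least 2-fold higher on the array labelled knockout were 2 of 19, both of Mcl1, against 0.663% of all 24267 entering probe sets, and at least 2-fold lower were 0 of 19, against 1.15%. Since Mcl1 was chosen for its difference, nothing is read from that share. Quantile normalization placed 1416881_at at 0.96 and loess at 0.97, so that only 1448503_at stayed past 2-fold under either. Without Mcl1, 13 probe sets of 7 genes remained, 5 higher and 8 lower with a median log2 ratio of -0.16, against 44.3% of all entering probe sets above 0. Of these 13, 12 were within 1.5-fold in either direction, with the Bid bound counted at its limit. The exception was the Bcl2 bound.

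By role, the pro-survival genes had 7 of 10 entering probe sets higher, 6 of them Mcl1, with a median log2 ratio of 0.33, and Mcl1 was chosen for its difference. The other 4 pro-survival probe sets, of Bcl2 and Bcl2l1, had 1 higher and 3 lower, with a median of -0.20. The BH3-only genes had a median of -0.16. The median of all entering probe sets was -0.05.

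Mcl1 is among the bright genes of these arrays. At least as bright as the dimmest Mcl1 probe set, by mean log2 signal, were 1847 probe sets, of which 8 were at least 2-fold higher on the array labelled knockout, or 0.433%. The 2 Mcl1 probe sets are among these 8. Mcl1 was chosen for being bright and different, so nothing is read from its place there. Brightness differs between probe sets for reasons of sequence, and no probe set's signal was set against another's as a level of RNA.

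**Figure D3:**
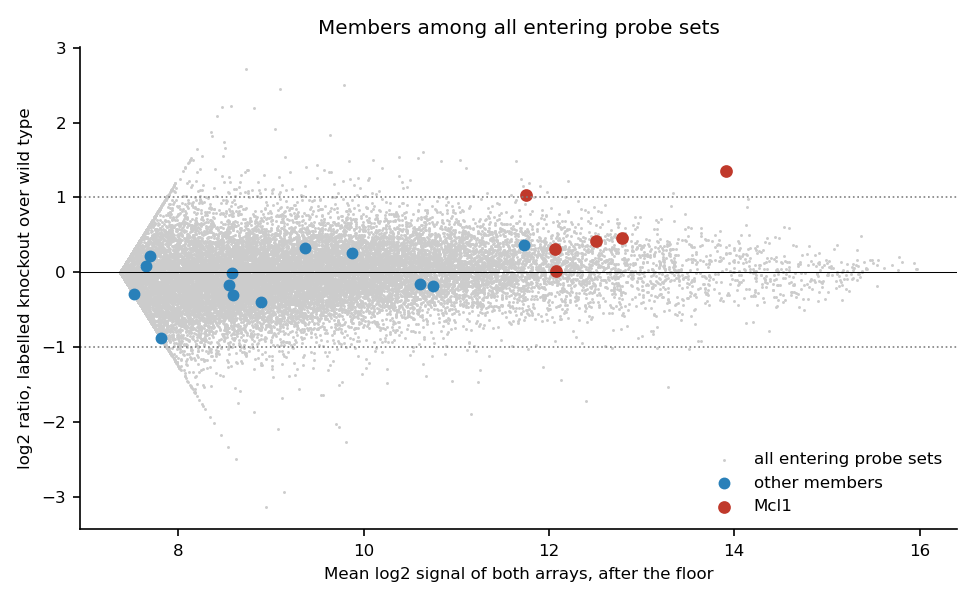
Log2 ratio of signal on the array labelled knockout over the wild-type array against mean log2 signal for all 24267 entering probe sets (grey), Mcl1 (red) and the other members (blue), with dotted lines at 2-fold. The 2 Mcl1 probe sets past 2-fold have log2 ratios of 1.04 and 1.35, and the blue points lie between -0.87 and 0.36.

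With 2 arrays the pattern of a gene is a single ratio, so likeness to Mcl1 was taken as nearness of the median log2 ratio, among 516 genes with at least 3 measured probe sets that shared 1 direction. The 5 nearest were Vps36 at 0.44 (n = 3 probe sets), Bet1l at 0.44 (n = 4), Cyp2b10 at 0.44 (n = 3), Esf1 at 0.44 (n = 3) and Sde2 at 0.43 (n = 4), against 0.44 for Mcl1. Their single probe sets ranged from 0.08 in Bet1l to 1.30 in Sde2.

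Genes that act with the family were taken as 9 lists, each gene shown by its brightest probe set. Of 63 such genes that entered, 0 differed by 2-fold, where the 2-fold mark was passed upward by 0.591% of all 11671 entering genes and downward by 0.883%. At 1.5-fold, 2 of 63 were higher, against 4.69% of all entering genes, and 1 was lower, against 6.26%. Their median log2 ratio was 0.01, with 33 of 63 above 0, and that of all entering genes was -0.03, with 47% above 0. The probe set chosen matters here, since 41 of the 63 genes had further entering probe sets, and in 29 of those at least 1 went the opposite way. Past 2-fold among these further probe sets were 1 each of Ywhaz at -1.72, Huwe1 at -1.54 and Birc6 at -1.21.

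Among the closer relatives, Bcl2l2, the gene of the pro-survival protein BCL-W, read 3195 on the array labelled knockout and 2193 on the wild-type array, a log2 ratio of 0.54. Its other 2 entering probe sets were lower on the array labelled knockout, at -0.29 and a bound of -0.88. Bok, a pore-forming relative, read 203 on the array labelled knockout and 281 on the wild-type array, a log2 ratio of -0.47. Bcl2l10 was below the floor. Of the other BH3 and BCL2-homology genes, 6 of 7 that entered were higher, with a median of 0.43. Becn1, the autophagy protein with a BH3 motif, had a log2 ratio of 0.46, with 1 of its other 4 probe sets lower, and Bnip3, of the hypoxia-induced mitophagy receptors, 0.44. Bcl2l14 was the lowest at -0.15, against 0.37 in its other probe set, and Hrk next at 0.10. Pmaip1, which encodes NOXA, the BH3-only partner of MCL1, was below the floor on both arrays. This median was -0.026 when each gene was shown by its least different probe set.

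Of the genes that set how long MCL1 protein lasts, 4 of 8 entering were higher by their brightest probe set, with a median of -0.01. This median was -0.16 when each gene was shown by the median over its probe sets. Fbxw7, a ubiquitin ligase subunit that recognises MCL1, had a log2 ratio of 0.45, with its other probe set lower. Gsk3b, a kinase that marks MCL1 for FBXW7, had 0.12, with 3 of its other 5 lower. Usp9x, a deubiquitinase that stabilises MCL1, had -0.24, with 2 of its other 6 higher, and Usp13, another deubiquitinase, -0.38. The arrays read RNA and hold nothing on the amount of MCL1 protein.

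The proteins and kinases that restrain BH3-only proteins had a median of -0.05, with 6 of 14 higher. Dynll2, the dynein light chain that holds BMF, read 1822 on the array labelled knockout and 1047 on the wild-type array, 1.74-fold higher, and its other probe set read 466 and 498 on the same 2 arrays. Ywhaz, a 14-3-3 protein of the kind that holds phosphorylated BAD, had a log2 ratio of 0.58 in its brightest probe set, whereas its other 6 ran from -1.72 to 0.74. Pim2, a survival kinase that phosphorylates BAD, was 1.56-fold lower, and Akt1, another BAD kinase, had -0.39. Of 5 transcription factors of BH3-only genes that entered, 2 were higher. Foxo1, which drives Bcl2l11, had 0.62, with 1 of its other 2 probe sets lower, and Foxo3 had 0.14. Jun read 347 on the array labelled knockout and 412 on the wild-type array in 1448694_at, a log2 ratio of -0.25, but 350 and 207 on the same 2 arrays in 1417409_at, a log2 ratio of 0.76, so its direction is not settled. Trp73, near the floor, had a bound of -0.17.

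Downstream of the pore, apoptosome and caspase genes had a median of -0.08, with 2 of 6 higher. The initiator caspase gene Casp8 had 0.16 and Casp9 0.09, and Casp2 had -0.27 and Apaf1, the scaffold that cytochrome c activates, -0.42. Caspase inhibitors and their antagonists had a median of -0.05, with 3 of 7 higher, from the inhibitors Birc2 at 0.50 and Birc3 at 0.38 to Xiap at -0.16 and the protease gene Htra2 at -0.43. The list of outer membrane partners and fission genes also holds Opa1, Aifm1 and Endog, whose products are not in the outer membrane. Of its 9 genes, 8 were higher, with a median of 0.20. That median came to 0.03 when each gene was shown by its least different probe set. Opa1, which shapes the cristae that hold cytochrome c, had 0.49, but its other 2 probe sets had -0.29 and -0.09. The channel Vdac1 had 0.38, with 1 of its other 3 lower, against 0.08 for Aifm1 and -0.03 for Mtch2, the membrane partner of BID, with 2 of its other 3 higher. Of the death receptor genes upstream of BID, 1 of 5 was higher, with a median of -0.20. That median is the bound of Fas, which read 98 on the array labelled knockout, under the floor, and 190 on the wild-type array. The list median was -0.31 with no floor and -0.12 when each gene was shown by the median over its probe sets. Cflar, which restrains caspase-8, had -0.40, with 2 of its other 4 probe sets higher, and the receptor Tnfrsf1a -0.23. Fadd had 0.01, against -0.24 in its other probe set, and Tradd -0.08.

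**Figure D4:**
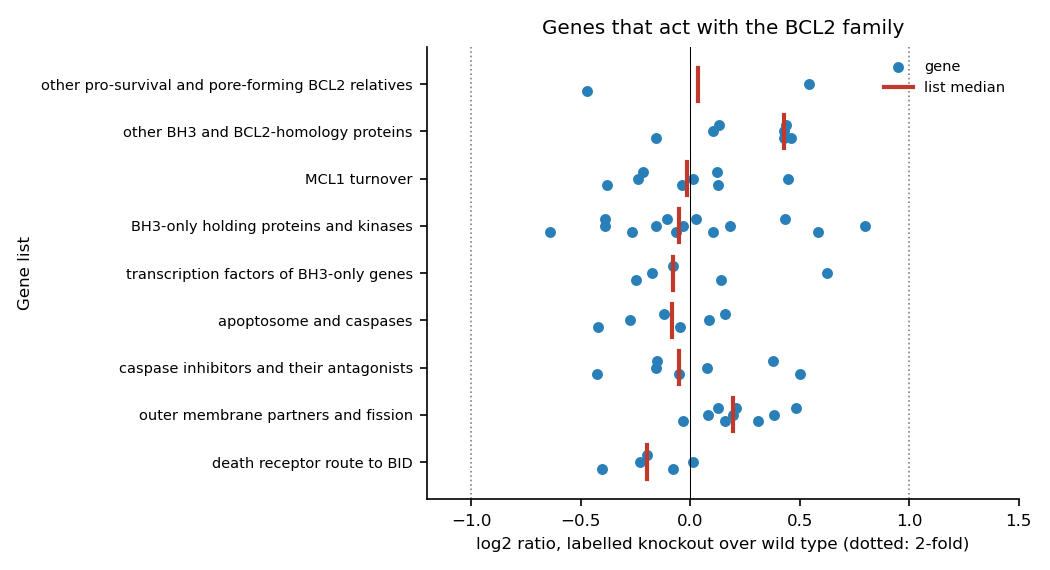
Log2 ratio of signal on the array labelled knockout over the wild-type array for the 63 entering genes of 9 lists (blue, brightest probe set of each gene) with the median of each list (red). All points, which leave out the other probe sets of each gene, lie within the dotted 2-fold lines, between -0.64 and 0.80.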

How the data were processed

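The values are linear probe-set intensities that the authors deposited for 2 arrays. The submitters' processing notes name GCOS 1.4, whose settings the notes do not give. Both arrays had a trimmed mean of 500.0 (2% cut from either end), a mark of global scaling. Detection calls were not used here. Probe sets were named by the platform annotation where it gave 1 symbol, and 9 of 9 members with probe sets matched a gene of the same symbol in GRCm38.p6 by Entrez ID. Promoters are RefSeq's of GRCm38.p6.

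Probe sets with a signal of at least 166, the floor, on either array entered. Lower signals were raised to the floor, so that such a ratio is a bound. Ratios are log2 of the array labelled knockout over the wild-type array, with no pseudocount. A gene was shown by its brightest probe set. The number of arrays limits the precision, and no p-value or error between animals can be given. Members, lists and settings were chosen with earlier results of these data known. In each list the top 2 and bottom 2 genes by ratio were named, with any past 2-fold. Alternatives changed the scaling (median centring, quantile normalization, or loess with a span of 0.4), the floor (absent, replaced by a pseudocount of 50, or set to percentile 30 or 70), the threshold (1.5-fold or 3-fold) and the probe set. The calculations were tested on simulated arrays. Python 3.11.15, pandas 2.3.3 and statsmodels 0.14.6 were used.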

Additional observations from a re-analysis of the deposited data

How the results depend on the processing

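No paired analysis was possible because each genotype had 1 array, and no array could be left out. The median log2 ratio of the Mcl1 probe sets stayed between 0.38 and 0.49 under 7 alternatives of scaling, floor and pseudocount. The floor settings could not change it, since every Mcl1 signal lay above each floor, and it was 0.44 under them. Quantile normalization and loess each gave 0.38. Member probe sets at least 2-fold higher numbered 2, against 1 under quantile normalization and 1 under loess, 0 at a 3-fold threshold and 4 of 31 with no floor. Those at least 2-fold lower numbered 0, against 1 with a pseudocount of 50, 1 at a 1.5-fold threshold, 2 with a floor at percentile 30 and 2 with no floor. As a single gene, Mcl1 had 1.35 by its brightest probe set, 0.44 by the median over probe sets and 0.02 by the probe set closest to no change. Other members moved as well. With suffixed probe sets left out, Bcl2l11 went from -0.16 to 0.33 and Bad from 0.26 to -0.16. By the median over probe sets, Bcl2l1 went from 0.36 to -0.01 and Bcl2 from -0.01 to -0.44. The Bcl2 bound of -0.87 in 1422938_at became -1.54 with no floor. Other lists that moved beyond 0.357, the pooled SD between probe sets of a gene, were the pro-survival and pore-forming relatives (0.04, against 0.54 with a floor at percentile 70 or suffixed probe sets left out, -0.47 with no floor, and -0.38 with the median or the closest probe set), the transcription factors (0.38 with a floor at percentile 70) and the other BH3 genes (-0.026 with the closest probe set). These medians rest on 1 to 7 genes, and the cause was not tested. Of 300 recomputed log2 ratios and medians, 30 changed sign, and 0 of those were past 2-fold. Over all probe sets, the split past 2-fold was 161 higher and 280 lower, against 214 and 206 under quantile normalization and 231 and 183 under loess. Signals near or below the floor limit Bcl2, Bid and Bbc3.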

Other observations

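Few genes had more than 1 probe set past 2-fold in the same direction. Among 4497 genes with at least 2 measured probe sets, 6 had at least 2 of them 2-fold higher on the array labelled knockout, or 0.133%. Besides Mcl1, which was chosen for its difference, these were Aldh2, Bpnt2, Deptor, Ikzf5 and Uba6, named here after their values were seen. Deptor, which binds and inhibits the mTOR kinase, had log2 ratios from 0.11 to 1.16 in 5 probe sets, none of them lower. Aldh2, a mitochondrial aldehyde dehydrogenase, had ratios from -0.28 to 2.23 in 4, so that its probe sets went both ways. Lower in at least 2 probe sets were 2 genes, Slc35a5 and the urothelial gene Upk1b, which had 3 of 4 past 2-fold and a median of -2.05.

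Ywhaz, Dynll1 and Huwe1 each had a probe set far from the others, and they are named here after their values were seen. The 7 probe sets of Ywhaz ran from -1.72, with 2978 on the array labelled knockout and 9813 on the wild-type array for 1436981_a_at, to 0.74 for 1416102_at. For Dynll1, 1440278_at read 283 on the array labelled knockout and 29.9 on the wild-type array, under the floor, at least 1.71-fold higher, while the other 3 lay between -0.46 and -0.11. Huwe1, the ubiquitin ligase that targets MCL1, had 1444279_at at 229 on the array labelled knockout and 668 on the wild-type array, 2.91-fold lower, beside -0.04 in its brightest probe set.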
